A study of Caenorhabditis elegans with 8 samples.

Results

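The *ugt-* genes of *C. elegans* encode UDP-glucuronosyltransferases. Members were all gene identifiers of the expression table whose gene symbol begins with *ugt-*, and there were 67 of them among 45461 features. RNA levels were compared in whole, very young adult animals of 4 strains. They were the wild type (N2), *egl-9(lf)* mutants (allele *sa307*), *egl-9(lf) hif-1(lf)* animals (*sa307* with *ia4*), hereafter the *hif-1* double mutants, and animals of the genotype *cyp-36A1(lf); egl-9(lf)* (*gk824636* with *sa307*), hereafter the *cyp-36A1* double mutants. Each strain gave 2 biological replicates of about 150 picked animals grown at 22.5°C on *E. coli* OP50, so there were 8 libraries of polyadenylated RNA with 11925027 to 22269111 counts each. All mutant strains carried *egl-9(sa307)*, no strain lost *hif-1* or *cyp-36A1* alone, and each genotype was a single strain, so other DNA differences of a strain cannot be told apart from the named mutations.

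UDP-glucuronosyltransferases are membrane enzymes of the endoplasmic reticulum that move a sugar from a UDP-sugar onto a small, poorly water-soluble molecule. The conjugate dissolves more readily in water and can be pumped out of the cell, and this step is therefore called phase II of detoxification, after an oxidation by cytochrome P450 enzymes. In *C. elegans* the sugar added to foreign chemicals is largely glucose, and the intestine is the main site of such reactions. EGL-9 is the prolyl hydroxylase that marks the transcription factor HIF-1 for degradation, so HIF-1 is active where *egl-9* is lost, and CYP-36A1 is a cytochrome P450 enzyme. Which substrate each of the 67 enzymes takes is known for few of them, so the genes are described below by their RNA alone.

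Values are given in 2 units. FPKM, fragments scaled by transcript length and library size, corrects for gene length and was used to compare levels between genes. CPM, counts scaled to a common library size after scaling by the TMM method, was used to compare 1 gene between strains. Differences are log2 fold changes with a standard error (SE). They come from edgeR's quasi-likelihood test on 1 model of all 8 libraries, and every adjusted p is that test's, with Benjamini-Hochberg adjustment over the 21372 features that rounded to 1 read or more in some library. A gene was said to rise or fall at an adjusted p under 0.05, and a call was said to be lost without a library where leaving out that library alone took the adjusted p to 0.05 or more. All 67 members entered the test, but *ugt-38*, *ugt-35*, *ugt-34* and *ugt-67* had fewer than 20 counts over the 8 libraries together.

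The family covered nearly 4 orders of magnitude in level. Mean FPKM over the 8 libraries was highest for *ugt-22* (C08F11.8) at 59.5, followed by *ugt-47* (R04B5.9) at 52.2, *ugt-64* (C07G3.9) at 35.3, *ugt-62* (M88.1) at 29.1 and *ugt-49* (AC3.2) at 28.0. These 5 genes made up 34.3% to 40.1% of the summed FPKM of the family in each library. The median member was at 4.23 FPKM. In all, 16 members were at 10 FPKM or more, 34 lay between 1 and 10, and 17 were under 1. Besides the first 5, the genes at 10 FPKM or more were *ugt-65*, *ugt-46*, *ugt-41*, *ugt-23*, *ugt-12*, *ugt-58*, *ugt-50*, *ugt-26*, *ugt-4*, *ugt-17* and *ugt-54*. The genes under 1 FPKM were *ugt-55*, *ugt-36*, *ugt-43*, *ugt-33*, *ugt-40*, *ugt-37*, *ugt-42*, *ugt-56*, *ugt-59*, *ugt-10*, *ugt-3*, *ugt-57*, *ugt-27*, *ugt-67*, *ugt-34*, *ugt-35* and *ugt-38*, the last with a single rounded count in a single library.

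**Figure D1:**
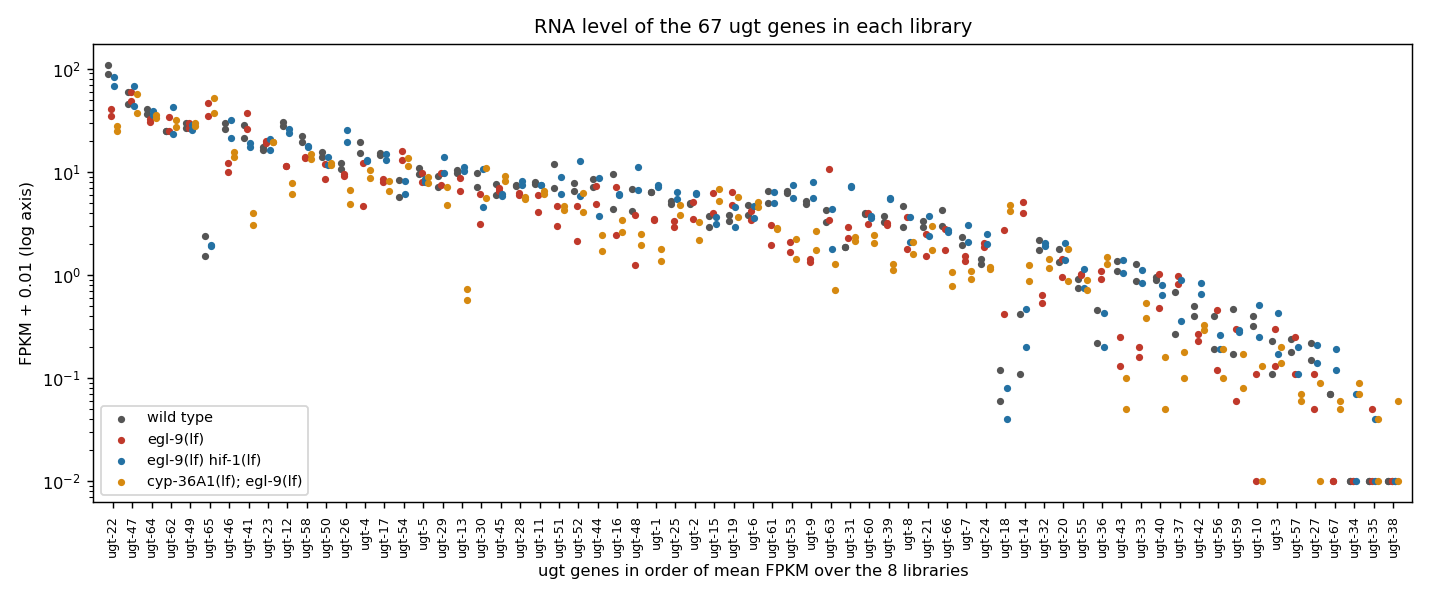
FPKM of each of the 67 *ugt* genes (y axis, log scale, with 0.01 added so that values of 0 can be drawn) in the 8 libraries, coloured by strain; genes are ordered along the x axis by mean FPKM. The libraries of *ugt-64* and *ugt-49* lie close together. Those of *ugt-47* range from 36.96 to 67.42 FPKM and those of *ugt-62* from 23.02 to 42.12 FPKM. *ugt-65*, *ugt-18* and *ugt-14* are spread by strain, with *ugt-65* at a mean of 1.96 FPKM in wild-type and 40.4 in *egl-9(lf)* animals.

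Summed over the family, FPKM was 605 and 609 in wild-type animals, 485 and 510 in *egl-9(lf)* mutants, 538 and 651 in the *hif-1* double mutants and 403 and 464 in the *cyp-36A1* double mutants. The sum was therefore lower in both libraries of the *egl-9(lf)* strain than in either wild-type library, and lowest in the *cyp-36A1* double mutants. The range of the *hif-1* double mutants included the wild-type values. The family took 0.0683% to 0.111% of all counts. The order of the abundant genes differed between strains. The mean FPKM of *ugt-22* was 98.4 in the wild type, above *ugt-47* at 52.2. In *egl-9(lf)* mutants it was 38, below *ugt-47* at 54 and *ugt-65* at 40.4. The means of *ugt-62* and *ugt-49* in the wild type, 24.9 and 28.2 FPKM, were below that of *ugt-12* at 29. Their order was the reverse in *egl-9(lf)* mutants, at 29.5 and 28.1 FPKM.

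Loss of *egl-9* leaves HIF-1 active, and in this strain 17 *ugt* genes fell and 4 rose relative to the wild type. The risers were *ugt-65*, *ugt-14*, *ugt-18* and *ugt-54*, and the first 3 of them increased more than 10-fold. The fallers included the most abundant member, *ugt-22*, and 6 further genes at a mean of 10 FPKM or more, *ugt-46*, *ugt-12*, *ugt-58*, *ugt-50*, *ugt-4* and *ugt-17*. The 17 fallers were 25.4% of the family, against 8.31% of all features tested, and the 4 risers were 5.97%, against 4.97%. At a change of at least 2-fold the family held 11 fallers and 3 risers, 16.4% and 4.48%, against 6.27% and 2.54% of all features. Calls are more frequent among expressed genes. Among the 12836 features at a mean of 1 FPKM or more 13.1% fell and 7.35% rose, and of the 50 members at that level 15 fell and 4 rose.

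*ugt-65* (F08G5.5, chromosome IV) was at 2.39 and 3.74 CPM in the wild type and at 51.6 and 69.6 CPM in *egl-9(lf)* animals, with a log2 fold change of 4.37 (SE 0.26, adjusted p = 5.0e-07), or 20.7-fold. It was at 3.02 and 3.14 CPM in the *hif-1* double mutants and at 58.3 and 81.7 CPM in the *cyp-36A1* double mutants. The 4 libraries of the strains with *hif-1* and without *egl-9* thus stood apart from the other 4, with no overlap. *ugt-65* moved from below most of the family to the level of its most abundant genes: its mean of 40.4 FPKM in *egl-9(lf)* mutants was above that of *ugt-22*, *ugt-64* and *ugt-62* in the same strain.

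*ugt-14* (H23N18.2, chromosome V) was at 0.677 and 0.170 CPM in the wild type and at 8.02 and 6.39 CPM in *egl-9(lf)* animals, with a log2 fold change of 3.85 (SE 0.40, adjusted p = 8.1e-05). It was at 0.755 and 0.325 CPM in the *hif-1* double mutants and at 1.44 and 2.05 CPM in the *cyp-36A1* double mutants. The *cyp-36A1* double mutants lay between the *egl-9(lf)* strain and the other strains, without overlap.

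*ugt-18* (ZC443.5, chromosome V) was at 0.181 and 0.0849 CPM in wild-type animals, 4.40 and 0.676 in *egl-9(lf)* mutants, 0.126 and 0.0542 in the *hif-1* double mutants and 8.12 and 7.15 in the *cyp-36A1* double mutants. Its *egl-9(lf)* libraries differed, with 73 and 9 counts, but both were above every wild-type library. The log2 fold change to the wild type was 4.13 (SE 0.89, adjusted p = 0.0069). It was 2.09 without *egl-9(lf)* replicate 1, and the call was lost without that library and without either wild-type library (4.86 and 3.84).

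*ugt-54* (T25B9.7, chromosome IV) changed less but was more abundant, at 14.3 and 9.77 CPM in wild-type animals, 26 and 21.7 in *egl-9(lf)* mutants, 13.8 and 10.8 in the *hif-1* double mutants and 24.2 and 20 in the *cyp-36A1* double mutants. The log2 fold change of *egl-9(lf)* mutants to the wild type was 0.96 (SE 0.20, adjusted p = 0.0083), and the libraries of these strains did not overlap. The call was lost without wild-type replicate 2 (0.75) or *egl-9(lf)* replicate 1 (0.77).

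**Figure D2:**
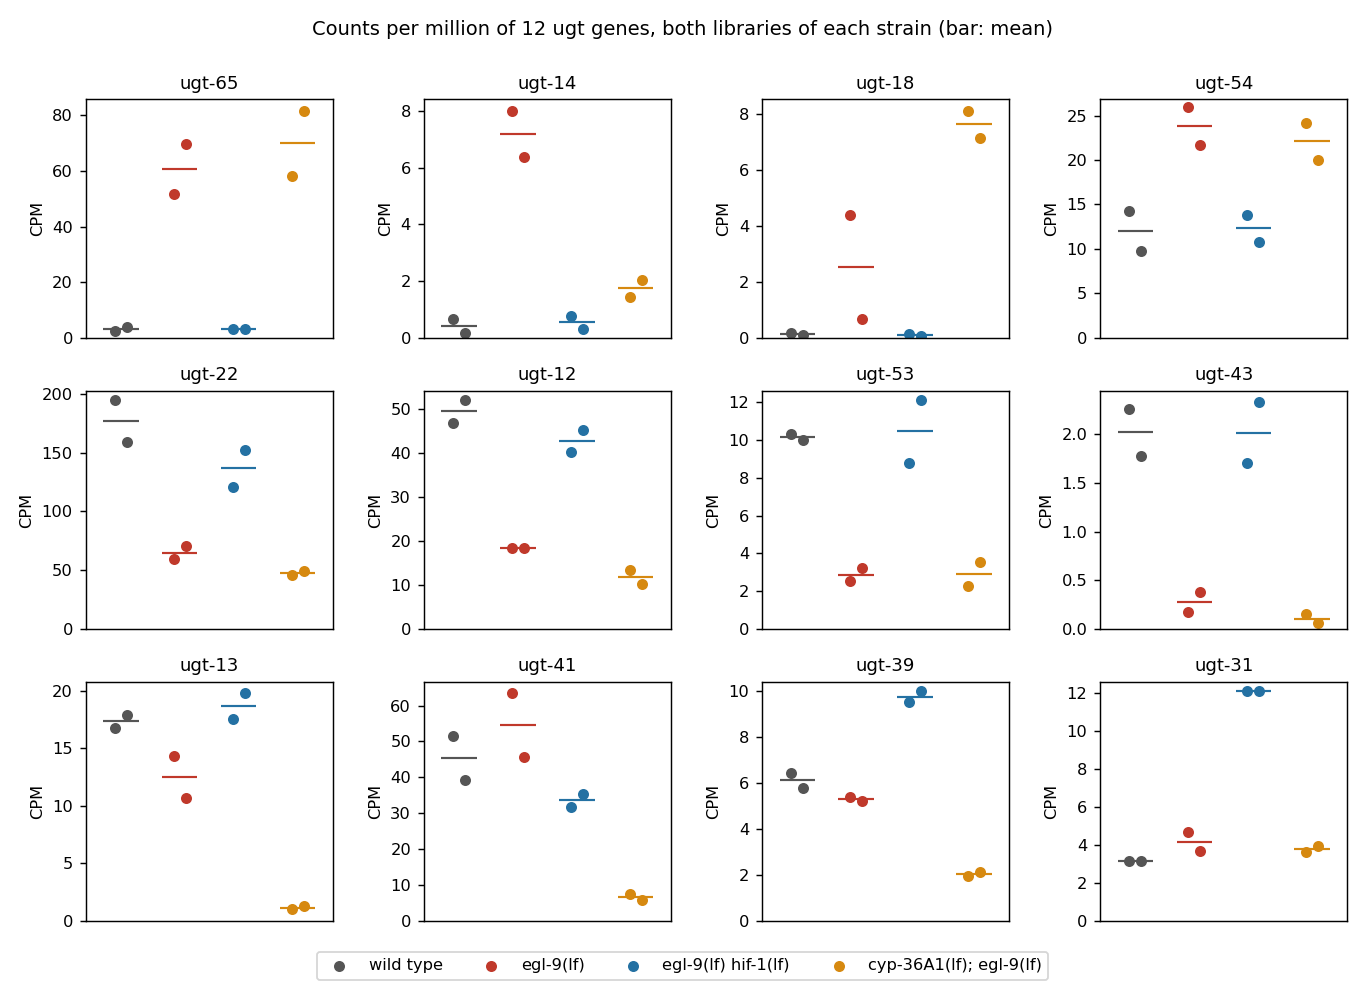
CPM (y axes, linear and starting at 0, each with its own scale) of 12 *ugt* genes in the 4 strains; points are the 2 libraries of a strain and bars their mean. *ugt-65* and *ugt-54* are high in both strains that lack *egl-9* and keep *hif-1*, *ugt-22*, *ugt-12*, *ugt-53* and *ugt-43* are low in the same strains, *ugt-13*, *ugt-41* and *ugt-39* are low in the *cyp-36A1* double mutants, and *ugt-31* is at 12.1 CPM in both *egl-9(lf) hif-1(lf)* libraries.

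Of the fallers, *ugt-43* (F01D4.1, chromosome IV) had the largest fitted change. It was at 2.26 and 1.78 CPM in the wild type and at 0.181 and 0.376 CPM in *egl-9(lf)* mutants (3 and 5 counts), with a log2 fold change of -2.92 (SE 0.51, adjusted p = 0.0021). *ugt-33* (C35A5.2), at 2.12 and 1.44 CPM in the wild type and at 0.241 and 0.300 CPM (4 and 4 counts) in *egl-9(lf)* mutants, changed by -2.77 (SE 0.52, adjusted p = 0.0038), a call lost without wild-type replicate 1 (-2.40). Both genes were low throughout, so their ratios rest on few reads.

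The abundant fallers were measured with more reads. *ugt-22* was at 195 and 159 CPM in the wild type and at 59.3 and 70.6 CPM in *egl-9(lf)* animals, with a log2 fold change of -1.45 (SE 0.15, adjusted p = 7.1e-05). *ugt-12* (T19H12.9) was at 46.9 and 52.1 CPM in the wild type and at 18.4 and 18.5 CPM in *egl-9(lf)* animals, a change of -1.42 (SE 0.15, adjusted p = 8.8e-05). *ugt-46* (B0310.5, chromosome X) was at 46.6 and 54.5 CPM and at 17.2 and 21.1 CPM, a change of -1.40 (SE 0.20, adjusted p = 7.5e-04). Each of these 3 genes was lower in both *egl-9(lf)* libraries than in both wild-type libraries by more than 2-fold.

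Of moderate level were *ugt-53* (T03D3.1), at 10.3 and 10 CPM in the wild type and at 2.53 and 3.23 CPM in *egl-9(lf)* animals (log2 fold change -1.84, SE 0.26, adjusted p = 7.2e-04), and *ugt-9* (T19H12.1), at 8.35 and 8.24 CPM and 2.29 and 2.10 CPM (-1.91, SE 0.28, adjusted p = 8.3e-04). In these strains the libraries of neither gene overlapped. *ugt-32* changed by -1.75, *ugt-51* by -1.39, *ugt-61* by -1.26 and *ugt-4* by -1.11. The call of *ugt-61* was lost without wild-type replicate 2 (-1.08) or *egl-9(lf)* replicate 1 (-1.0), that of *ugt-51* without wild-type replicate 1 (-0.91) or *egl-9(lf)* replicate 2 (-1.13), and that of *ugt-4* without either wild-type library (-0.93 and -1.26), *egl-9(lf)* replicate 2 (-0.62) or replicate 2 of the *cyp-36A1* double mutants (-1.11). Changes of less than 2-fold that passed the test were those of *ugt-1* (-0.94), *ugt-17* (-0.92), *ugt-25* (-0.75), *ugt-11* (-0.69), *ugt-58* (-0.67) and *ugt-50* (-0.63). The call of *ugt-1* was lost without wild-type replicate 1 (-0.96), and that of *ugt-58* without wild-type replicate 1 (-0.57) or *egl-9(lf)* replicate 1 (-0.69). Those of *ugt-11* (-0.46 to -0.74) and *ugt-50* (-0.47 to -0.71) were lost without either wild-type library or *egl-9(lf)* replicate 2, and that of *ugt-25* without any library of these strains (-0.68 to -0.90). In all, 10 of the 21 calls held without each library in turn. They were *ugt-65*, *ugt-14*, *ugt-43*, *ugt-9*, *ugt-53*, *ugt-32*, *ugt-22*, *ugt-12*, *ugt-46* and *ugt-17*. The other 46 members did not pass the test. With the replicate number as a block, *ugt-48* (-1.25, adjusted p = 0.0035), *ugt-52* (-1.14, 0.0034), *ugt-30* (-1.01, 0.0028) and *ugt-21* (-0.74, 0.045) passed as well, all lower.

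The median log2 fold change of the 67 members in *egl-9(lf)* mutants was -0.40, against 0.00 over all features tested, and over the members at 1 FPKM or more it was -0.43, against 0.033. In RNA of whole animals, fewer cells of a type and less RNA per cell cannot be told apart. Of 8 intestinal marker genes, *mtl-2* fell (-0.99) and the other 7 did not pass the test. Their summed FPKM was 1045 and 1088 in wild-type animals, 713 and 849 in *egl-9(lf)* mutants, 963 and 1252 in the *hif-1* double mutants and 890 and 861 in the *cyp-36A1* double mutants. Of 8 sperm genes 7 fell in *egl-9(lf)* mutants, with a summed FPKM of 237 and 245 in wild-type animals, 98.9 and 100 in *egl-9(lf)* mutants, 217 and 311 in the *hif-1* double mutants and 115 and 111 in the *cyp-36A1* double mutants. Of 9 germ line and oocyte genes 4 rose in *egl-9(lf)* mutants, and of 7 epidermal genes *sqt-3* rose (2.93) and *grd-1* fell (-1.25). No marker gene of these lists was at 0 in all libraries. Of 7 embryonic genes *pes-10*, with 1 and 1 counts in wild-type animals and 16 and 18 in the *egl-9(lf)* strain, and *skn-1* (0.42) rose, and no gene of the muscle, pharynx and neuron lists passed the test. The summed FPKM of the germ line and oocyte genes was 1733 and 1838 in wild-type animals and 2369 and 2372 in *egl-9(lf)* animals. Between these strains the sums of the sperm and intestinal genes were thus lower, as was the median of the *ugt* genes. The sum of the germ line and oocyte genes was higher. Most of the intestinal sum came from *act-5* (-0.53) and *mtl-2*, so its fall does not stand for that list as a whole. Of the other intestinal genes, *ifb-2* (0.25) and *pept-1* (0.45) had fitted changes above 0, and the rest had changes of -0.18 to -0.46. The part of any of these lists in the result was not tested.

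**Figure D3:**
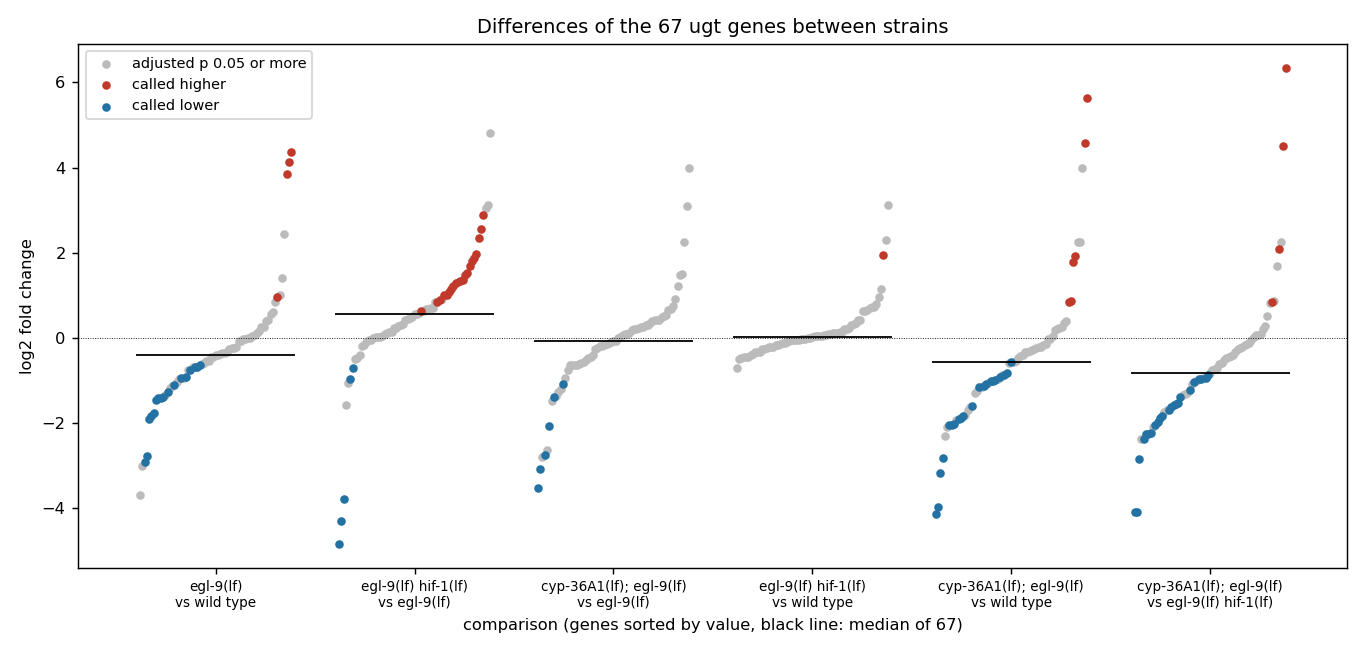
Log2 fold changes (y axis) of the 67 *ugt* genes in each of 6 comparisons (x axis), sorted by value within a comparison; red points passed the test as higher, blue points as lower, grey points did not pass, and black lines are the medians. The median is -0.40 between *egl-9(lf)* mutants and the wild type and 0.56 for *egl-9(lf) hif-1(lf)* against *egl-9(lf)*, which share the *egl-9(lf)* libraries, and 0.016 for *egl-9(lf) hif-1(lf)* against the wild type.

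Removal of *hif-1* from *egl-9(lf)* mutants asks which of these levels depend on HIF-1. In the *hif-1* double mutants 20 *ugt* genes were higher than in *egl-9(lf)* animals and 5 were lower, 29.9% and 7.46% of the family, against 8.86% and 4.25% of all features tested. Among the features at a mean of 1 FPKM or more 13.5% were higher and 6.09% lower, and of the 50 members at that level 17 were higher and 5 lower. The median was 0.56 over the members and 0.00 over all features. This comparison and that of *egl-9(lf)* mutants with the wild type share the *egl-9(lf)* libraries, so a chance value in those libraries would move both in opposite directions, and the values are given side by side without a test of their overlap. The RNA of *hif-1* was at 161 and 143 CPM in *egl-9(lf)* mutants and at 45.2 and 43.5 CPM in the double mutants (log2 fold change -1.78, SE 0.12, adjusted p = 1.1e-06).

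The genes lower without *hif-1* were *ugt-18* (-4.83, SE 0.98, adjusted p = 0.004), *ugt-65* (-4.29, SE 0.26, adjusted p = 4.7e-07), *ugt-14* (-3.77, SE 0.40, adjusted p = 7.9e-05), *ugt-54* (-0.96, SE 0.20, adjusted p = 0.007) and *ugt-41* (-0.71, SE 0.19, adjusted p = 0.025). For *ugt-18* the double mutants held 3 counts in all, against 82 in *egl-9(lf)* mutants, a ratio of 31.4 with a 95% counting interval of 10.4 to 155, and the call was lost without *egl-9(lf)* replicate 1 (-2.81) or replicate 2 of the *hif-1* double mutants (-4.34). The call of *ugt-54* was lost without the same libraries (-0.78 and -0.79). *ugt-41* (F10D2.11) was at 63.6 and 45.7 CPM in *egl-9(lf)* mutants and at 31.7 and 35.4 CPM in the double mutants, and its call was lost without *egl-9(lf)* replicate 1 (-0.40) or either library of the double mutants (-0.63 and -0.79). It had not passed the test between *egl-9(lf)* mutants and the wild type (0.26, 95% interval -0.14 to 0.66).

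The largest rise without *hif-1* was that of *ugt-43*, from 0.181 and 0.376 CPM to 1.70 and 2.33 CPM, a log2 fold change of 2.89 (SE 0.51, adjusted p = 0.0019). *ugt-33* rose by 2.55, *ugt-9* by 2.34, *ugt-53* by 1.88, *ugt-32* by 1.80, *ugt-46* by 1.36, *ugt-61* by 1.30, *ugt-12* by 1.21, *ugt-1* by 1.14 and *ugt-22* by 1.08. *ugt-22* was at 121 and 152 CPM in the double mutants, above both *egl-9(lf)* libraries and below both wild-type libraries. *ugt-25* (1.00), *ugt-51* (1.00), *ugt-17* (0.84) and *ugt-11* (0.63) rose as well. The call of *ugt-33* was lost without *egl-9(lf)* replicate 1 (2.43), that of *ugt-61* without replicate 2 of the *hif-1* double mutants (1.08), and that of *ugt-25* without that library (0.84) or *egl-9(lf)* replicate 2 (0.92). The call of *ugt-51* was lost without either library of the *hif-1* double mutants (0.74 and 1.24), either of the *cyp-36A1* double mutants (1.03 and 1.00) or *egl-9(lf)* replicate 2 (0.74), and that of *ugt-11* without any library but *egl-9(lf)* replicate 1 (0.40 to 0.66). Of the genes that had fallen in *egl-9(lf)* mutants, *ugt-4* (0.67, adjusted p = 0.20), *ugt-58* (0.43, adjusted p = 0.062) and *ugt-50* (0.49, adjusted p = 0.084) did not pass here.

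A further 6 genes rose without *hif-1* that had not passed between *egl-9(lf)* mutants and the wild type. They were *ugt-48* (1.97), *ugt-42* (1.69), *ugt-31* (1.53), *ugt-52* (1.48), *ugt-26* (1.34) and *ugt-39* (0.88). *ugt-48* (C18C4.3) was at 6.68 and 11 CPM in wild-type animals, 1.87 and 5.93 in *egl-9(lf)* mutants and 10.6 and 18.5 in the *hif-1* double mutants. Its *egl-9(lf)* libraries were thus below those of the wild type and the *hif-1* double mutants. Its replicates differed by more than 1.5-fold in each of these strains. In the *cyp-36A1* double mutants *ugt-48* was at 3.14 and 4.04 CPM, between the values of the *egl-9(lf)* libraries. Its call was lost without replicate 2 of the *hif-1* double mutants (1.51), that of *ugt-52* without replicate 1 of these (0.85) or *egl-9(lf)* replicate 2 (1.06), and that of *ugt-42* without any library but replicate 1 of either double mutant (1.48 to 1.82). *ugt-39* (F10D2.2) was at 6.41 and 5.78 CPM in wild-type animals, 5.36 and 5.18 in *egl-9(lf)* mutants and 9.49 and 9.96 in the *hif-1* double mutants. Its rise from *egl-9(lf)* mutants was 0.88 (SE 0.18, adjusted p = 0.0063) and was not called without *egl-9(lf)* replicate 2 (0.86). In all, 13 of the 25 calls held without each library in turn, among them those of *ugt-65*, *ugt-14*, *ugt-43*, *ugt-9*, *ugt-53*, *ugt-31*, *ugt-26* and *ugt-22*. With the replicate number as a block 7 further members passed, *ugt-7* (0.88), *ugt-30* (0.78), *ugt-13* (0.57), *ugt-29* (0.54) and *ugt-58* (0.43) as higher and *ugt-36* (-1.56) and *ugt-63* (-1.07) as lower, with adjusted p of 0.0098 to 0.049. In this comparison 6 of the 8 sperm genes and 2 of the 8 intestinal genes, *act-5* (0.65) and *mtl-2* (1.04), rose. Of the other lists the epidermal one held 1 gene that rose, *grd-1* (1.32), and 2 that fell, *sqt-3* (-3.42) and *rol-6*, 2 of 7 embryonic genes, *pes-10* and *skn-1*, and 1 of 5 muscle genes, *myo-3* (-0.58), fell, and no gene of the germ line and oocyte, pharynx and neuron lists passed the test. *rol-6* had 49 and 0 counts in *egl-9(lf)* mutants and 0 and 0 in the *hif-1* double mutants, so its fall rests on *egl-9(lf)* replicate 1 alone. The part of these lists in the result was not tested.

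Compared directly with the wild type, the *hif-1* double mutants differed in a single *ugt* gene, 1.49% of the family, against 0.0842% of all features tested higher and 0.131% lower. Among features at a mean of 1 FPKM or more these shares were 0.117% and 0.21%. *ugt-31* (Y39G10AR.6, chromosome I) was at 3.12 and 3.14 CPM in wild-type animals, 4.64 and 3.68 in *egl-9(lf)* mutants, 12.1 and 12.1 in the *hif-1* double mutants and 3.6 and 3.92 in the *cyp-36A1* double mutants. The *hif-1* double mutants thus stood alone, with the other 6 libraries between 3.12 and 4.64 CPM. The log2 fold change to the wild type was 1.95 (SE 0.20, adjusted p = 7.2e-04), and without wild-type replicate 1 it was 1.94 with an adjusted p of 0.089. *ugt-26* (C10H11.6, chromosome I), at 18.2 and 22 CPM in the wild type and 33.7 and 44.0 CPM in these double mutants, differed by 0.97 (SE 0.18, adjusted p = 0.078) and passed with the replicate number as a block (0.95, adjusted p = 0.01). No member was lower by edgeR's test, and 7 of the 67 were under an unadjusted p of 0.05 in either direction. The count of lower members was also 0 by DESeq2.

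Intervals show what this comparison could resolve. For *ugt-65* the double mutants differed from the wild type by 0.083 (95% interval -0.67 to 0.84), for *ugt-22* by -0.37 (-0.69 to -0.053), for *ugt-12* by -0.21 (-0.52 to 0.10), for *ugt-53* by 0.040 (-0.42 to 0.50) and for *ugt-43* by -0.033 (-0.71 to 0.65). The intervals of *ugt-14* (-1.41 to 1.57) and *ugt-18* (-4.77 to 3.36) were wide, and both genes had few counts in both strains.

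Removal of *cyp-36A1* from *egl-9(lf)* mutants asks which of the levels depend on this cytochrome P450. In the *cyp-36A1* double mutants 6 *ugt* genes were lower than in *egl-9(lf)* animals, *ugt-13*, *ugt-41*, *ugt-63*, *ugt-14*, *ugt-39* and *ugt-1*, all by more than 2-fold. All 6 lie on chromosome V, as do 42 of the 67 members. They were 8.96% of the family, against 0.903% of all features tested. No member was higher, against 0.664% of all features; by edgeR's default estimate of the spread there were 2 higher, *ugt-18* and *ugt-30*, by DESeq2 0, and 23 of the 67 members were under an unadjusted p of 0.05 in either direction. The median was -0.072 over the members and 0.00 over all features. Among features at a mean of 1 FPKM or more 1.35% were lower and 1.04% higher, and of the 50 members at that level 6 were lower.

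*ugt-13* (H23N18.1) was at 16.8 and 17.9 CPM in wild-type animals, 14.3 and 10.7 in *egl-9(lf)* mutants, 17.5 and 19.8 in the *hif-1* double mutants and 0.976 and 1.24 in the *cyp-36A1* double mutants. Both libraries of the last strain were thus more than 8-fold below each of the other 6. The log2 fold change to *egl-9(lf)* mutants was -3.51 (SE 0.26, adjusted p = 1.3e-05), or 11.4-fold lower. *ugt-13* had not passed the test between *egl-9(lf)* mutants and the wild type (-0.45, adjusted p = 0.12).

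*ugt-41* was at 51.6 and 39.3 CPM in wild-type animals, 63.6 and 45.7 in *egl-9(lf)* mutants, 31.7 and 35.4 in the *hif-1* double mutants and 7.30 and 5.59 in the *cyp-36A1* double mutants. Here too the *cyp-36A1* double mutants lay below all other libraries, and the log2 fold change to *egl-9(lf)* mutants was -3.08 (SE 0.22, adjusted p = 9.0e-06). *ugt-39* was at 1.95 and 2.11 CPM in the *cyp-36A1* double mutants, below every other library, the lowest of which was at 5.18 CPM. Its change was -1.38 (SE 0.23, adjusted p = 0.0081), which was not called without *egl-9(lf)* replicate 1 (-1.31) or without either library of the double mutants (-1.29 and -1.43).

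*ugt-14*, which had risen in *egl-9(lf)* mutants, was lower in the *cyp-36A1* double mutants by a log2 fold change of -2.07 (SE 0.31, adjusted p = 0.0036), a call lost without replicate 1 of the double mutants (-1.80). *ugt-1* (AC3.7) was at 10.9 and 11.2 CPM in wild-type animals, 5.79 and 5.71 in *egl-9(lf)* mutants, 12.2 and 13.2 in the *hif-1* double mutants and 2.36 and 3.11 in the *cyp-36A1* double mutants. It was thus lower in *egl-9(lf)* mutants than in the wild type and lower again in the *cyp-36A1* double mutants (-1.08, SE 0.22, adjusted p = 0.032). The second of these calls was lost on leaving out any library of the wild type, the *egl-9(lf)* strain or the *cyp-36A1* double mutants, with changes of -0.86 to -1.28.

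*ugt-63* (C04F5.7) was at 5.69 and 7.48 CPM in wild-type animals, 5.67 and 17.9 in *egl-9(lf)* mutants, 3.08 and 7.74 in the *hif-1* double mutants and 1.23 and 2.24 in the *cyp-36A1* double mutants. The *cyp-36A1* double mutants were the lowest strain, but replicates of *egl-9(lf)* mutants differed by more than 3-fold. The change was -2.75 (SE 0.58, adjusted p = 0.036), and it was -1.73 and not called without *egl-9(lf)* replicate 2. The call was also lost without either wild-type library (-2.75 and -2.76) and without either library of the double mutants (-2.32 and -3.20). Only the calls of *ugt-13* and *ugt-41* held without each library in turn.

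Of the 4 genes that had risen in *egl-9(lf)* mutants, only *ugt-14* was called here. *ugt-65* differed between the *cyp-36A1* double mutants and *egl-9(lf)* mutants by 0.21 (SE 0.19, 95% interval -0.20 to 0.62, adjusted p = 0.91) and *ugt-54* by -0.12 (95% interval -0.54 to 0.31). *ugt-18* was higher by a fitted 1.5 (SE 0.41, adjusted p = 0.11). It passed with the replicate number as a block (1.57, adjusted p = 0.013), and without *egl-9(lf)* replicate 1 the change was 3.52 and was called. With the block *ugt-30* also passed as higher (0.90, adjusted p = 0.024) and *ugt-37* as lower (-2.65, adjusted p = 0.0064). The test of the difference between losing *cyp-36A1* and losing *hif-1* gave 4.50 for *ugt-65*, 0.85 for *ugt-54* and 6.34 for *ugt-18*, with adjusted p of 3.8e-07, 0.016 and 1.5e-04. For *ugt-14* it gave 1.70 (adjusted p = 0.052, and 0.033 with the block). For *ugt-18* the counts were 273 against 3, a ratio of 88.0 with a 95% counting interval of 29.8 to 429.

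Most genes that had fallen in *egl-9(lf)* mutants were not called in either direction on removal of *cyp-36A1*. The differences were 0.0029 for *ugt-53* (95% interval -0.69 to 0.70), -0.10 for *ugt-17* (-0.47 to 0.27), 0.26 for *ugt-61* (-0.34 to 0.87), -0.44 for *ugt-22* (-0.78 to -0.11, adjusted p = 0.33) and -0.63 for *ugt-12* (-0.99 to -0.28, adjusted p = 0.10). Fitted values above 0 were those of *ugt-33* (1.48, adjusted p = 0.57), *ugt-32* (1.22, adjusted p = 0.19), *ugt-9* (0.76, adjusted p = 0.54) and *ugt-46* (0.49, adjusted p = 0.57). No gene of any marker list passed the test in this comparison. The RNA of *cyp-36A1* itself was at 5.74 and 8.92 CPM in wild-type animals and 29.4 and 55.0 in *egl-9(lf)* mutants. It was at 5.22 and 6.88 CPM in the *hif-1* double mutants and 4.78 and 19.4 in the *cyp-36A1* double mutants. The replicates of the last strain differed 4-fold. Its difference from *egl-9(lf)* mutants was -1.83 (SE 0.46, adjusted p = 0.086) and did not pass the test.

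Against the wild type, the *cyp-36A1* double mutants were lower in 21 *ugt* genes and higher in 6, 31.3% and 8.96% of the family, against 7.47% and 4.72% of all features. The median was -0.57. Among features at a mean of 1 FPKM or more 11.7% were lower and 7.01% higher, and of the 50 members at that level 19 were lower and 5 higher. The higher genes were *ugt-18* (5.63), *ugt-65* (4.58), *ugt-36* (1.93), *ugt-14* (1.78), *ugt-15* (0.87) and *ugt-54* (0.84). *ugt-36* (F09G2.6) was at 0.723 and 0.340 CPM in wild-type animals, 1.69 and 1.43 in *egl-9(lf)* mutants, 0.314 and 0.704 in the *hif-1* double mutants and 2.42 and 2.05 in the *cyp-36A1* double mutants. Its libraries were higher in both strains that lack *egl-9* and keep *hif-1* than in the other 2 strains, without overlap, but between *egl-9(lf)* mutants and the wild type it did not pass the test (1.41, adjusted p = 0.071). The call of *ugt-14* against the wild type (adjusted p = 0.046) was lost on leaving out any library of these strains or *egl-9(lf)* replicate 2, with changes of 1.34 to 3.28. That of *ugt-36* was lost without either wild-type library (2.70 and 1.63) or replicate 1 of the double mutants (1.77). The call of *ugt-15* was lost without any library of these strains (0.67 to 1.05), and that of *ugt-54* without wild-type replicate 2 (0.63) or replicate 1 of the double mutants (0.67).

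The lowest values relative to the wild type were those of *ugt-43* (-4.12, with 3 and 1 counts in the double mutants), *ugt-13* (-3.97), *ugt-40* (-3.18) and *ugt-41* (-2.82). They were followed by *ugt-12* (-2.05), *ugt-66* (-2.04), *ugt-1* (-2.03), *ugt-22* (-1.89), *ugt-44* (-1.88), *ugt-53* (-1.83) and *ugt-39* (-1.60). *ugt-66* (C23G10.6, chromosome III) was at 7.27 and 5.10 CPM in wild-type animals, 4.52 and 2.85 in *egl-9(lf)* mutants, 4.40 and 4.71 in the *hif-1* double mutants and 1.34 and 1.80 in the *cyp-36A1* double mutants, so it was lowest in the last strain. *ugt-44* (F01D4.2, chromosome IV), at 12.9 and 15.5, 12.6 and 8.49, 6.67 and 16.3, and 4.42 and 3.11 CPM in the same strains, was also lowest there, and its call against the wild type was lost without wild-type replicate 2 (-1.76) or replicate 2 of the double mutants (-1.67). Neither gene passed between the *cyp-36A1* double mutants and *egl-9(lf)* mutants (-1.27, adjusted p = 0.12, and -1.48, adjusted p = 0.11). The other lower genes were *ugt-9* (-1.15), *ugt-51* (-1.13), *ugt-7* (-1.07), *ugt-17* (-1.02), *ugt-26* (-1.0), *ugt-61* (-0.99), *ugt-46* (-0.91), *ugt-2* (-0.88), *ugt-60* (-0.82) and *ugt-58* (-0.57). In all, 12 of the 27 calls held without each library in turn, among them those of *ugt-43*, *ugt-13*, *ugt-41*, *ugt-12*, *ugt-66*, *ugt-1*, *ugt-22*, *ugt-53* and *ugt-39*. The calls of *ugt-61* (-0.82 to -1.20), *ugt-46* (-0.80 to -1.03), *ugt-60* (-0.71 to -0.94) and *ugt-7* (-0.95 to -1.22) were lost without any library of both strains, that of *ugt-7* also without *egl-9(lf)* replicate 2. The other losses were those of *ugt-40* without wild-type replicate 1 (-3.12) or replicate 2 of the double mutants (-2.60), *ugt-9* without either wild-type library (-1.14 and -1.16) or that replicate 2 (-0.89), *ugt-51* without wild-type replicate 1 (-0.65) or either library of the double mutants (-1.22 and -1.08), *ugt-26* without wild-type replicate 2 (-0.86) or replicate 1 of the double mutants (-0.79), and *ugt-2* (-0.63 to -0.89) and *ugt-58* (-0.47 to -0.65) without either wild-type library or that replicate 1. With the replicate number as a block 7 further members passed, all lower, *ugt-63* (-2.02), *ugt-37* (-1.69), *ugt-48* (-1.28), *ugt-33* (-1.26), *ugt-16* (-1.12), *ugt-8* (-1.02) and *ugt-4* (-0.86). The comparison shares its wild-type libraries with the others, and 7 of 8 sperm genes and 2 of 8 intestinal genes, *gtl-1* (-0.62) and *mtl-2* (-0.56), fell in it. In the same comparison 5 of 9 germ line and oocyte genes rose, by 0.40 to 0.53, as did the epidermal gene *sqt-3* (2.41) and the embryonic gene *pes-10* (21 and 23 counts in the double mutants), while the epidermal gene *grd-1* fell (-1.46) and no gene of the muscle, pharynx and neuron lists passed. The part of these lists in the result was not tested.

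The direct test between both double mutants asked whether loss of *cyp-36A1* and loss of *hif-1* left the family at different levels. In the *cyp-36A1* double mutants 23 *ugt* genes were lower and 4 were higher than in the *hif-1* double mutants, 34.3% and 5.97% of the family, against 8.25% and 3.95% of all features tested. The median was -0.82. Among features at a mean of 1 FPKM or more 12.4% were lower and 5.67% higher, and of the 50 members at that level 20 were lower and 3 higher. The higher genes were *ugt-18*, *ugt-65*, *ugt-36* (2.09) and *ugt-54*. The lower genes with the largest changes were *ugt-43* (-4.09), *ugt-13* (-4.08), *ugt-40* (-2.84), *ugt-41* (-2.37), *ugt-39* (-2.26), *ugt-37* (-2.25), *ugt-1* (-2.22), *ugt-48* (-2.04) and *ugt-26* (-1.97). *ugt-26* was at 18.2 and 22 CPM in wild-type animals, 15.7 and 14.9 in *egl-9(lf)* mutants, 33.7 and 44.0 in the *hif-1* double mutants and 8.43 and 11.6 in the *cyp-36A1* double mutants, so the 4 strains did not overlap. In this test 6 of 8 sperm genes were lower, and of the intestinal genes *gtl-1* (-0.63) and *mtl-2* (-0.61) were lower and *ges-1* (0.49) was higher. The germ line gene *puf-5* (0.38), the epidermal gene *sqt-3* (2.89), the embryonic gene *pes-10* and the muscle gene *myo-3* (0.49) were also higher, and the epidermal gene *grd-1* (-1.53) and the neuronal gene *unc-13* (-0.55) lower. The part of these lists in the result was not tested. In all, 14 of the 27 calls held without each library in turn, among them those of *ugt-18*, *ugt-65*, *ugt-43*, *ugt-13*, *ugt-41*, *ugt-39*, *ugt-1* and *ugt-26*. Of the genes named here, the calls of *ugt-36* (1.95 without replicate 1 of the *cyp-36A1* double mutants), *ugt-54* (0.68 without replicate 2 of the *hif-1* double mutants and 0.69 without replicate 1 of the *cyp-36A1* double mutants), *ugt-48* (-1.58 and -1.86 without the same libraries), *ugt-40* (-2.98 and -2.25 without replicate 2 of each double mutant) and *ugt-37* (-1.35 without replicate 2 of the *hif-1* double mutants, -1.82 and -2.75 without either library of the *cyp-36A1* double mutants, and -2.24 without *egl-9(lf)* replicate 2) were lost. With the block 8 further members passed, *ugt-14* and *ugt-15* as higher and *ugt-16*, *ugt-28*, *ugt-51*, *ugt-52*, *ugt-60* and *ugt-63* as lower.

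Of the 67 members 41 passed the test in at least 1 of the 6 comparisons and 26 in none. Among the 26, *ugt-8*, *ugt-16*, *ugt-21*, *ugt-28* and *ugt-30* passed in at least 1 comparison with the replicate number as a block. The 41 were 61.2% of the family, against 19.8% of all features tested, and of the 50 members at a mean of 1 FPKM or more 35 passed, against 29.1% of all features at that level. Of these 26 genes, 11 were under a mean of 1 FPKM, 10 lay between 1 and 10, and 5 were at 10 or more. The 5 were *ugt-47*, *ugt-64*, *ugt-62*, *ugt-49* and *ugt-23*, so 4 of the 5 most abundant members did not pass in any comparison. *ugt-49* was at 49.7 and 55.7 CPM in wild-type animals, 46.8 and 53.4 in *egl-9(lf)* mutants, 46.9 and 54 in the *hif-1* double mutants and 52.5 and 56.0 in the *cyp-36A1* double mutants, and all of its ranges overlapped. For *egl-9(lf)* mutants against the wild type its difference was -0.071 (95% interval -0.36 to 0.22), that of *ugt-47* -0.015 (-0.54 to 0.51), that of *ugt-62* 0.17 (-0.36 to 0.71) and that of *ugt-64* -0.36 (-0.63 to -0.086, adjusted p = 0.083). At the other end, *ugt-67* had no count in *egl-9(lf)* mutants and expected counts of 4.23 and 3.14 in the *hif-1* double mutants, and it did not pass the test. Taking 3 counts over the 2 libraries as the limit that a count of 0 allows, the ratio was 2.14. This is no lower bound, since it leaves out the counting error of the few reads in the double mutants. The counts of *ugt-67* were also not whole in 6 libraries. *ugt-10* had 14 and 6 counts in wild-type animals, against 0 and 2 in the *egl-9(lf)* strain, a ratio of 8.82 with a 95% counting interval of 2.14 to 77.8, which covers counting error only.

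In the WBcel235 annotation, used here for gene order only, 42 of the 67 genes lie on chromosome V, 12 on IV, 5 on I, 4 on X, 3 on III and 1 on II. *egl-9* and *hif-1* are also on chromosome V and *cyp-36A1* is on chromosome I. In 10 runs *ugt* genes follow each other with no other protein-coding gene between them, and these runs hold 31 members. The longest has 7 genes, in the order *ugt-11*, *ugt-9*, *ugt-10*, *ugt-67*, *ugt-8*, *ugt-14* and *ugt-13*.

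Neighbours within a run could differ in call and direction. In the run of 7, *ugt-14* rose in *egl-9(lf)* mutants by 3.85 while *ugt-9* fell by 1.91, *ugt-11* fell by 0.69, and its neighbour *ugt-13* (-0.45) did not pass. In the *cyp-36A1* double mutants *ugt-13* and *ugt-14*, the last 2 genes of this run, were both lower than in *egl-9(lf)* animals. *ugt-18* stands beside *ugt-16* and *ugt-15*, which differed between *egl-9(lf)* mutants and the wild type by -0.60 and 0.56 and did not pass. *ugt-43* adjoins *ugt-44*, which was at more than 3 times its FPKM in every library, and *ugt-1* adjoins *ugt-2*. *ugt-2* did not pass in *egl-9(lf)* mutants (-0.26) and was lower in the *cyp-36A1* double mutants than in the wild type (-0.88, adjusted p = 0.031). *ugt-65*, *ugt-22*, *ugt-41*, *ugt-39* and *ugt-54* have no *ugt* gene directly beside them. In gene order, however, *ugt-39* and *ugt-41* are the next *ugt* genes after the run of *ugt-40*, *ugt-37* and *ugt-38*, with other protein-coding genes between. Both were lowest in the *cyp-36A1* double mutants, as was the sum of *ugt-37* and *ugt-40* given below.

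**Figure D4:**
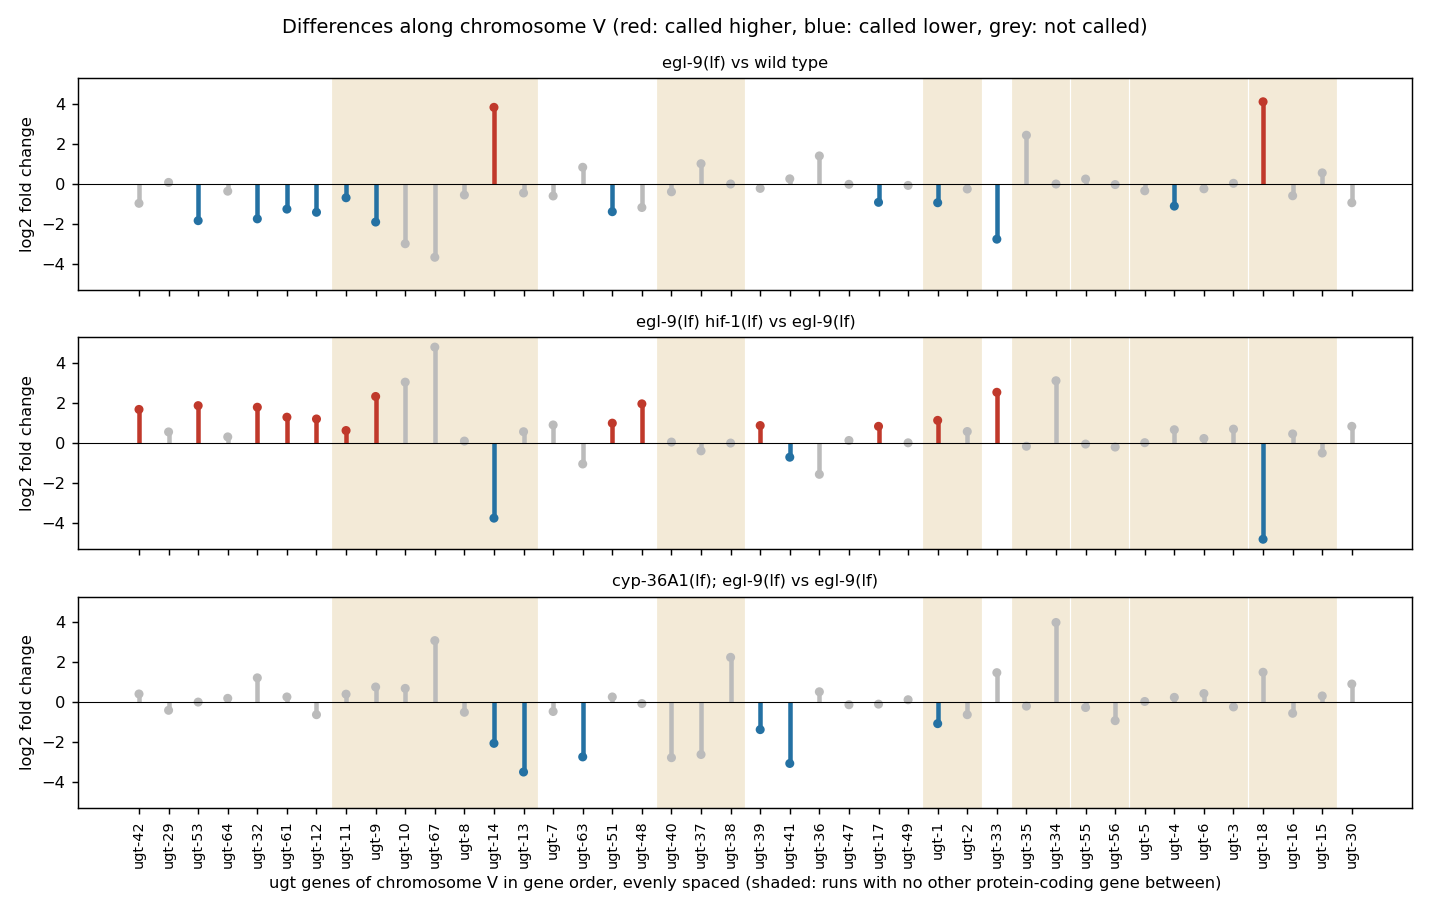
Log2 fold changes (y axes) of the 42 *ugt* genes of chromosome V in 3 comparisons, with genes evenly spaced along the x axis in WBcel235 order; red stems passed the test as higher, blue as lower, grey did not pass, and shaded bands are runs of *ugt* genes with no other protein-coding gene between them. The longest run holds red, blue and grey stems in the upper panel, among them those of *ugt-14* (3.85) and *ugt-9* (-1.91), and the 6 blue stems of the lower panel are *ugt-14*, *ugt-13*, *ugt-63*, *ugt-39*, *ugt-41* and *ugt-1*.

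Reads that match several genes are shared out in expected counts, so values that are not whole mark genes that share reads. Counts were whole in all 8 libraries for 28 members and were not whole in at least 7 libraries for 9, *ugt-19*, *ugt-20*, *ugt-22*, *ugt-9*, *ugt-51*, *ugt-48*, *ugt-40*, *ugt-37* and *ugt-49*, and these are uncertain to that extent. *ugt-37* (F10D2.6) and *ugt-40* (F10D2.5) are neighbours whose counts summed to a whole number, within 0.02, in 8 of 8 libraries. Their sum was 2.35 and 3.40 CPM in wild-type animals, 2.89 and 4.28 in *egl-9(lf)* mutants, 2.33 and 3.63 in the *hif-1* double mutants and 0.514 and 0.559 in the *cyp-36A1* double mutants. The sum was thus lower in the last strain than in all others, by a log2 ratio of means of -2.74 to *egl-9(lf)* mutants, -2.42 to the wild type and -2.47 to the *hif-1* double mutants, without a test. *ugt-19* and *ugt-20*, whose sum was whole in 7 of 8 libraries, gave ratios of -0.11 to *egl-9(lf)* mutants, 0.23 to the wild type and 0.12 to the *hif-1* double mutants.

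Genes that act beside the UDP-glucuronosyltransferases were read from lists. For comparison, 4.97% of all features tested rose and 8.31% fell in *egl-9(lf)* mutants, and 7.35% and 13.1% of those at a mean of 1 FPKM or more. On removal of *hif-1* 8.86% of all features rose and 4.25% fell, and at that level 13.5% and 6.09%. On removal of *cyp-36A1* 0.664% of all features rose and 0.903% fell. Of 10 genes for UDP-sugar supply and other uses of UDP-glucose, 3 rose and none fell in *egl-9(lf)* mutants, with a median of 0.27. They were *sqv-4* (0.57, SE 0.11, adjusted p = 0.006), which encodes the dehydrogenase that makes UDP-glucuronic acid, *rml-1* (0.37), and *gsy-1* (0.38), the glycogen synthase that competes for UDP-glucose. *sqv-4* was at 74.9 and 79.4 FPKM in wild-type animals, 121 and 120 in *egl-9(lf)* mutants, 101 and 80.8 in the *hif-1* double mutants and 111 and 114 in the *cyp-36A1* double mutants, so all libraries of the last strain and of *egl-9(lf)* mutants were above the others. The calls of *rml-1* and *gsy-1* were lost without any wild-type or *egl-9(lf)* library (0.27 to 0.42) and that of *sqv-4* without either *egl-9(lf)* library or wild-type replicate 1 (0.52 to 0.56). On removal of *hif-1* only *gsy-1* of this list was called (-0.40), and on removal of *cyp-36A1* none was.

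Of 23 *pgp-* and *mrp-* genes, which encode ABC transporters of the kind that export conjugates, 7 fell and 2 rose in *egl-9(lf)* mutants, with a median of -0.23. Of all features tested 8.31% fell and 4.97% rose. The fallers were *pgp-13* (-1.67), *pgp-1* (-1.65), *pgp-14* (-1.44), *pgp-11* (-0.99), *pgp-2* (-0.96), *pgp-9* (-0.82) and *mrp-3* (-0.66), and the risers were *pgp-4* (1.43) and *mrp-7* (0.41). Of these calls those of *pgp-13*, *pgp-14* and *pgp-2* held without each library in turn, and *pgp-1* ranged from -2.63 to -1.02. Without *hif-1* 7 of the list rose and none fell, against 8.86% and 4.25% of all features tested. *pgp-5* was at 4.02 and 8.41 CPM in wild-type animals, 9.64 and 10.6 in *egl-9(lf)* mutants, 28.2 and 38.4 in the *hif-1* double mutants and 0.617 and 1.55 in the *cyp-36A1* double mutants. It was called higher in the *hif-1* double mutants than in the wild type (2.52, SE 0.29, adjusted p = 0.0027) and lower in the *cyp-36A1* double mutants than in *egl-9(lf)* animals (-3.26, SE 0.43, adjusted p = 0.0014), as was *pgp-8* (-3.25, SE 0.49, adjusted p = 0.0034). The first of these calls was lost without wild-type replicate 1 (1.99) or replicate 2 of the *hif-1* double mutants (2.28), and that of *pgp-8* without replicate 1 of the *cyp-36A1* double mutants (-3.25, adjusted p = 0.07). *pgp-5* shares reads with other genes, since its counts were not whole in any library.

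Of 16 regulators of detoxification or of HIF-1, 5 rose in *egl-9(lf)* mutants and 1 fell, and without *hif-1* 1 rose and 6 fell. The shares of all features tested were 4.97% and 8.31%, and 8.86% and 4.25%. The list holds *egl-9* and *hif-1*, which are themselves mutated in these strains and add to these counts. The risers were *rhy-1* (5.67) and *cysl-1* (2.02), which act upstream of EGL-9, *egl-9* itself (1.83), the nuclear receptor gene *nhr-46* (0.45) and *skn-1* (0.42). *skn-1* encodes the transcription factor of the oxidative stress response and is also counted above among the embryonic genes. The nuclear receptor gene *nhr-176* fell (-1.05). The calls of *nhr-46* (0.41 to 0.49) and *skn-1* (0.39 to 0.45) were lost without any wild-type or *egl-9(lf)* library, and that of *nhr-176* without wild-type replicate 2 (-0.98) or *egl-9(lf)* replicate 2 (-0.91). None of the 16 was called between the *cyp-36A1* double mutants and *egl-9(lf)* mutants by edgeR's test. *rhy-1* was at 6.14 and 9 CPM in wild-type animals, 347 and 401 in *egl-9(lf)* mutants, 11.4 and 9.53 in the *hif-1* double mutants and 350 and 406 in the *cyp-36A1* double mutants, so its levels fell into the same order of strains as those of *ugt-65*, high in the strains that lack *egl-9* and keep *hif-1*.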

How the data were processed

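RNA-seq libraries of 4 *C. elegans* strains with 2 biological replicates each (separate populations) were analysed, grouped by the genotypes in the labels. Single-end reads had been aligned by the authors with bowtie 1.0.1 to ce10 transcripts of Ensembl 65. From these alignments RSEM 1.2.15 gave the deposited expected counts, which are not scaled between libraries, and the deposited FPKM values, which are scaled by transcript length and library total. The submitters' processing notes also name BWA 0.7.5a, SAMtools 0.1.19 and bedtools 2.17.0. Whether strand was used in counting is not given in the sources used here. Expected counts were rounded before fitting, since 36.1% of those over 0 held fractions of a read. Library totals were 11925027 to 22269111, and counting intervals and limits for a count of 0 cover counting error only.

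Symbols came from RefSeq (WBcel235) by sequence name for 44080 of 45461 features and from the paper's supplementary tables for 16, while 1365 had none. WBcel235 differs from the build of the files, so no coordinates are given, and no sequences were used here.

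After rounding, 21372 features held 1 read or more in some library, and these entered a fit by edgeR 4.0.16 under R 4.3.3 (TMM, estimateDisp, glmQLFit, glmQLFTest, 1 mean per strain, no block). The paper's methods name estimateDisp, glmQLFit and glmQLFTest fitted across all conditions, while TMM scaling and the absence of a block were chosen here. The revised quasi-likelihood estimate (legacy=FALSE) was used, with 7.8 prior degrees of freedom, since the default gave infinite ones, which leave out each gene's own spread. Counts of 17679 genes were also simulated for the 8 libraries from mean levels over all strains, with changes put into the *egl-9(lf)* libraries alone. The spread of each gene was set by formula and not estimated from these data. There the revised estimate recovered 80 of 100 genes changed 4-fold and 2 of 100 changed 2-fold, with 4 false calls. At such a spread changes near 2-fold can be missed, but these shares need not hold for the data, where changes of less than 2-fold were called. Standard errors are the log2 fold change divided by the square root of F.

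Deviations from the strain mean correlated between libraries of the same replicate number in all 6 pairs of strains, at 0.119 to 0.291 across 13696 genes, so the numbers were taken to pair the libraries, and a fit with the number as a block was an alternative. The main fit leaves this pairing out, so members not called by it include those that passed with the block. Other alternatives were the default estimate, DESeq2 1.42.0, median-ratio scaling, library size alone, filterByExpr, a minimum of 1 FPKM in 2 libraries, at least 2 counts in total, no filter, robust estimation, the 2 strains compared alone, an adjusted p under 0.01, limma 3.58.1 on log2(FPKM + 0.5) with pseudocounts of 0.1 and 1 as variations, and each library left out.

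Named with values were members called at 2-fold or more in *egl-9(lf)* or a double mutant against the wild type, those called in *cyp-36A1(lf); egl-9(lf)* against *egl-9(lf)*, and the 5 most abundant. Other members are named by their calls, and *ugt-54*, *ugt-26*, *ugt-48*, *ugt-10*, *ugt-67*, the genes given by gene order and the pairs that share reads were chosen after their values were seen. The members, lists and tests were chosen with earlier results of these data known.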

Additional observations from a re-analysis of the deposited data

How the results depend on the processing

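Among the 30 members named by rule, no call changed direction under any alternative run. Counts of members that moved by over 1.5 times were as follows. For *cyp-36A1(lf); egl-9(lf)* against *egl-9(lf)* the default quasi-likelihood estimate gave 13 lower and 2 higher members in place of 6 and 0, and the replicate block gave 2 higher. For *egl-9(lf) hif-1(lf)* against the wild type the default estimate, DESeq2, robust estimation and the replicate block gave 2 higher members, *ugt-31* and *ugt-26*, in place of 1. At an adjusted p under 0.01, *cyp-36A1(lf); egl-9(lf)* against the wild type held 2 higher and 13 lower members in place of 6 and 21. Scaling by library size alone gave 5 members higher by at least 2-fold in *egl-9(lf)* mutants in place of 3, and limma on log2(FPKM + 1) gave 7 lower by at least 2-fold in place of 11. At the stricter adjusted p a count can only stay or drop, since the fit is the same. The cause of the other shifts was not tested. The replicate block gained 30 calls over the 6 comparisons, given with the results, and lost none of the calls reported.

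Leaving out 1 library at a time gave 2 to 4 higher and 9 to 18 lower members between *egl-9(lf)* mutants and the wild type (2 to 4 and 8 to 13 at 2-fold or more). For *egl-9(lf) hif-1(lf)* against *egl-9(lf)* it gave 14 to 20 higher and 2 to 5 lower, for *cyp-36A1(lf); egl-9(lf)* against *egl-9(lf)* 0 to 1 higher and 2 to 8 lower, with *ugt-13* and *ugt-41* called each time, and for *egl-9(lf) hif-1(lf)* against the wild type 0 to 1 higher and 0 lower. For *cyp-36A1(lf); egl-9(lf)* it gave 2 to 6 higher and 12 to 26 lower against the wild type, and 2 to 5 higher and 13 to 25 lower against *egl-9(lf) hif-1(lf)*. With 1 library left in a strain, that library is assumed to vary like the others. Having 2 libraries per strain limits all comparisons, and genes under about 1 CPM rest on few reads.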
